A study of Arabidopsis thaliana with 28 samples.

Results

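The hAT DNA transposon families were taken as all entries of a deposited table of transposable element families whose superfamily field is HAT or whose name starts with ATHAT. This gave 4 of 83 named families: ATHAT10, ATHATN1, TAG2 and ATHATN3. The hAT superfamily is a class of cut-and-paste DNA transposons named after hobo of Drosophila, Ac of maize and Tam3 of snapdragon. An autonomous hAT element encodes a transposase that excises the element and inserts it elsewhere, while non-autonomous elements keep the ends but depend on a transposase made by another copy. In plants most copies of such elements are held silent by DNA methylation and by methylation of histone H3 on lysine 9. The N in ATHATN1 and ATHATN3 marks families described as non-autonomous. TAG2 is a hAT family related to Tag1, a mobile element known from Arabidopsis.

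Seedlings of Arabidopsis thaliana were 6 days old, and RNA of their aerial parts was sequenced in 3 libraries of the caa39 mutant and 3 of the wild type Col-0. The line caa39 is known as a mutant of the A subunit of topoisomerase VI, an enzyme that passes one DNA duplex through another. The labels give a single mutant line, grown like the wild type on sucrose-containing medium in long days, and describe the libraries as biological replicates. The sources used here do not state how many seedlings made up an RNA library. Values are normalised read counts summed over all copies of a family, so no position in the genome belongs to them. They are neither per length nor per copy, and a higher value of one family over another is a statement about reads only. The table holds no entries for single genes, so the mutated gene and markers of the tissue were not checked here.

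The deposited table gives the mean of each genotype, and the value of each library was solved from these means as whole reads. In caa39 the libraries held between 14609 and 22681 reads in named families, and in the wild type between 16301 and 18997. The solved libraries carry letters by size factor and cannot be tied to the replicate numbers of the labels. The 4 hAT families together held 1747, 1501 and 1168 reads in caa39 libraries a, b and c, against 2161, 3158 and 1823 in wild-type libraries a, b and c.

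The comparison of caa39 with the wild type asked how expression of each hAT family differed between the genotypes. ATHAT10, ATHATN1 and TAG2 fell in caa39, to between 0.370 and 0.618 of the wild type, while ATHATN3 rose 3.32-fold in the authors' deposited table. All 4 had an adjusted p below 0.05 in the authors' deposited table, but so had 100.0% of the named families, because the table lists none above that threshold. The background for a fall was 51.8% of named families and for a rise 48.2%, so a count of 3 that fell and 1 that rose is close to the list at large. The median of the log2 values in the authors' deposited table was −0.86 over the 4 hAT families and −0.35 over all 83. The other DNA transposon families of the table (MuDR, En-Spm, Harbinger, Pogo and entries with no superfamily) numbered 23, of which 8 fell and 15 rose, with a median of 1.16. In these bulk samples fewer cells of a type and less RNA per cell cannot be told apart.

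ATHAT10 had the most reads of the 4 and the second highest mean of all 83 named families. It had 682, 734 and 754 normalised reads in caa39 libraries a, b and c, against 1462, 2953 and 1442 in wild-type libraries a, b and c. All caa39 libraries lay below all wild-type libraries, and wild-type library b stood apart from a and c, which were close to each other. The means were 723 ± 37.3 in caa39 and 1952 ± 867 in the wild type (SD, n = 3 each). The fold in the authors' deposited table was 0.370, with an adjusted p of 1.61e-27, the sixth smallest of the named families. With limma, a linear model fitted here to log2 values of all 83 families, the log2 fold change was −1.35 ± 0.30 (SE) with a Benjamini-Hochberg adjusted p of 0.00662. Without wild-type library b the ratio of means was 0.498 and the limma log2 fold change −1.01, with an adjusted p of 0.000907 in limma. Library b was picked out from these same values, so leaving it out narrows the spread by choice. With any other library left out, the limma adjusted p lay between 0.00831 and 0.0249, and the log2 fold change between −1.52 and −1.31. Limma called 97.6% of the named families, which had been listed for passing a test on the same libraries. With each library scaled to its total of listed reads, the ratio of means for ATHAT10 was 0.462. The limma log2 fold change was then −1.04 (limma adjusted p = 0.0176), and limma called 83.1% of the named families.

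TAG2 was the most even of the 4 within each genotype. It reached 96.7, 100.9 and 100.7 normalised reads in caa39 libraries a, b and c, against 196, 204 and 208 in wild-type libraries a, b and c. The genotypes were separated by far more than the distance between libraries of either one. The means were 99.4 ± 2.38 in caa39 and 203 ± 5.99 in the wild type (SD, n = 3 each), on 346 and 533 reads. The fold was 0.491 in the authors' deposited table, with an adjusted p of 1.58e-07. The limma log2 fold change was −1.02 ± 0.08 (SE), with an adjusted p of 0.000172, and with any 1 library left out the ratio of means stayed between 0.483 and 0.497. The size of the fall depended on scaling here too. With each library scaled to its total of listed reads, the ratio of means was 0.607 and the limma log2 fold change −0.72.

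ATHATN1, a non-autonomous family, showed the smallest change. It had 368, 295 and 307 normalised reads in caa39 libraries a, b and c, against 588, 446 and 537 in wild-type libraries a, b and c. The genotypes did not overlap, but the highest caa39 library reached 0.826 of the lowest wild-type library. The means were 324 ± 39.2 in caa39 and 524 ± 72.2 in the wild type (SD, n = 3 each), a fold of 0.618 in the authors' deposited table with an adjusted p of 4.27e-05. The limma log2 fold change was −0.69 ± 0.15 (SE), with an adjusted p of 0.00568. This call was lost when each library was scaled to its total of listed reads, where the log2 fold change was −0.38 (limma adjusted p = 0.0620) and limma called 83.1% of the named families. That scaling raised the log2 fold changes of the named families by a median of 0.31.

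ATHATN3, also non-autonomous and the lowest of the 4 in the wild type, was the member that rose. It had 133, 111 and 116 normalised reads in caa39 libraries a, b and c, against 44.5, 34.6 and 29.2 in wild-type libraries a, b and c. The lowest caa39 library was 2.49 times the highest wild-type library. The means were 119.8 ± 11.4 in caa39 and 36.1 ± 7.78 in the wild type (SD, n = 3 each). These means rest on 421 reads in caa39 and 96 reads in the wild type. The authors' deposited table gives an adjusted p of 8.20e-11, and limma gave a log2 fold change of 1.73 ± 0.18 (SE) with an adjusted p of 0.000434. The ratio of means ran from 3.03 to 3.76 with 1 library left out, and was 4.11 with libraries scaled to listed reads.

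**Figure D1:**
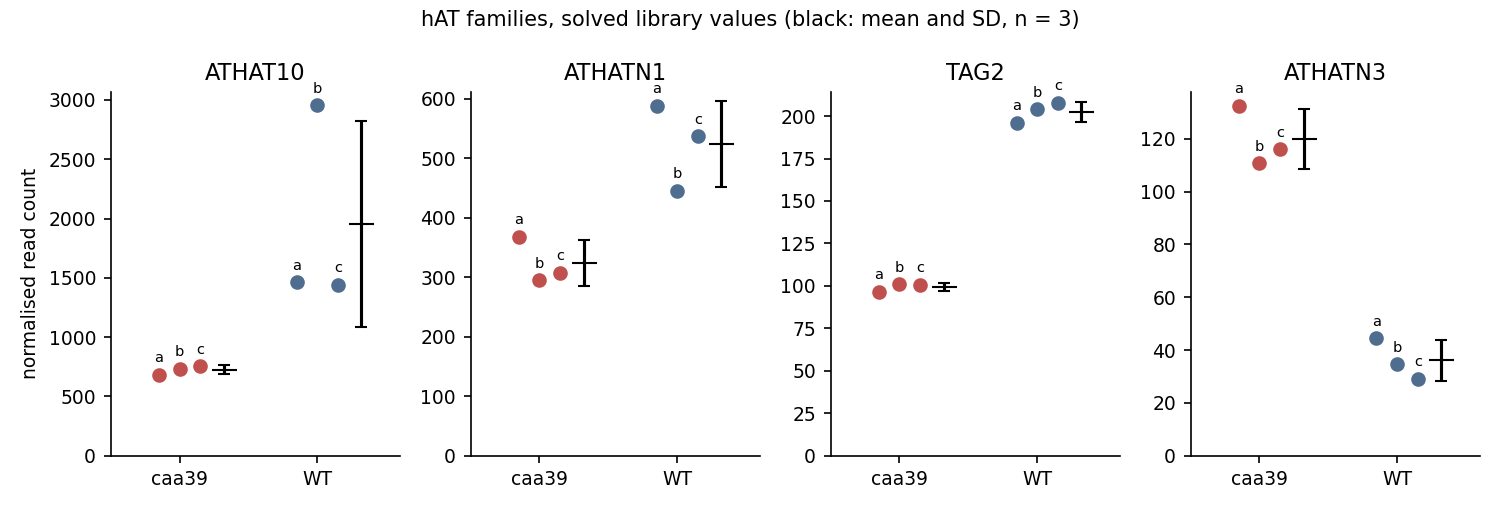
Normalised read counts (vertical axes, from 0, a different scale in each panel) of the 4 hAT families in the solved libraries a, b and c of caa39 (left) and the wild type (WT, right); black bars give the mean and SD of 3 libraries. ATHAT10, ATHATN1 and TAG2 are lower in all caa39 libraries and ATHATN3 is higher, and wild-type library b of ATHAT10 stands at 2953 against 1462 and 1442.

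Libraries of the 2 genotypes did not overlap for any of the 4 families, as for 98.8% of all named families. A two-sided exact permutation test over libraries gave p = 0.1 for each family, and a design of 3 against 3 cannot give less. A change of at least 2-fold was listed in the authors' deposited table for 3 of the 4, ATHAT10, TAG2 and ATHATN3. The share of named families with a change of that size was 61.4%. At an adjusted p below 0.01 all 4 stayed in the authors' deposited table, with 74.7% of the named families.

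How far single libraries shaped these values was examined within each genotype. ATHAT10 had a coefficient of variation of 44.4% in the wild type, the highest of the 59 named families with a wild-type mean of at least 20, where the median was 9.63%. In caa39 the same family had 5.16%, rank 50 of 65 families. All ranked families had been listed for an adjusted p below 0.05 between the genotypes. What that selection did to the median and the ranks was not tested. Wild-type library b held 2.03 times the mean of libraries a and c for ATHAT10, again the highest of the 59 families. For TAG2 that ratio was 1.01, for ATHATN3 0.938 and for ATHATN1 0.792, so the other hAT families were not raised in library b. Over the 59 families the median ratio was 0.975, and 3 families exceeded 1.5: ATHAT10, the En-Spm family ATENSPM10 at 1.62 and ATCOPIA50 at 1.54. What set library b apart for ATHAT10 was not tested.

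**Figure D2:**
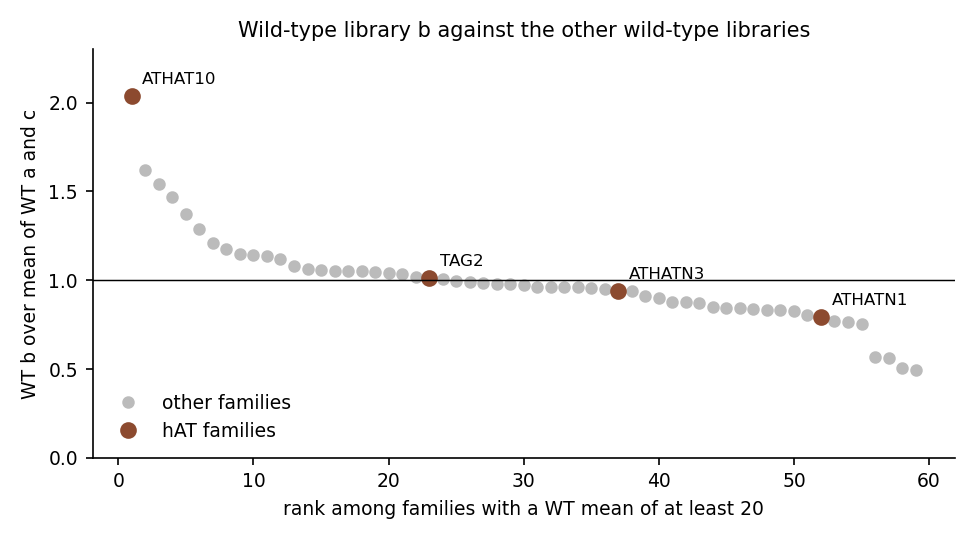
Ratio of the normalised count in wild-type library b to the mean of wild-type libraries a and c (vertical axis), with the 59 named families of a wild-type mean of at least 20 ordered by that ratio (horizontal axis). ATHAT10 has the highest ratio, 2.03, while TAG2, ATHATN3 and ATHATN1 lie among the other families, at 1.01, 0.938 and 0.792.

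The families were next compared with each other inside each library, where scaling between libraries cancels. The log2 ratio of ATHAT10 to TAG2 reads was 2.82, 2.86 and 2.90 in caa39 libraries a, b and c, against 2.90, 3.86 and 2.79 in wild-type libraries a, b and c. Apart from wild-type library b the 5 values lay within 0.11 of each other, and the difference between the genotypes was −0.32 with that library and 0.02 without it. That library was picked out for its high ATHAT10 value, so leaving it out narrows this range by choice. ATHAT10 to ATHATN1 differed by −0.66 on the log2 scale over all libraries and −0.20 if that library is left out, with overlapping genotypes. ATHATN1 to TAG2 differed by 0.34 over all libraries and 0.22 if that library is left out, also with overlap. For ATHATN1 to TAG2 the SD was 0.20 in caa39 and 0.23 in the wild type, each smaller than the difference over all libraries. For these 3 pairs the two-sided exact permutation p was 0.7, 0.2 and 0.2. The genotypes overlapped in each pair, and the design cannot show that the families that fell are alike.

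ATHATN3 departed from each of the others. The log2 ratio of TAG2 to ATHATN3 reads was −0.46, −0.14 and −0.20 in caa39 libraries a, b and c, against 2.14, 2.56 and 2.83 in wild-type libraries a, b and c. TAG2 thus had more reads than ATHATN3 in every wild-type library and fewer in every caa39 library, with 132, 122 and 92 reads of TAG2 against 181, 134 and 106 of ATHATN3 in caa39. The difference was −2.78 for this pair, −2.44 for ATHATN1 to ATHATN3 and −3.10 for ATHAT10 to ATHATN3. None of these 3 pairs overlapped between genotypes, and each had a two-sided exact permutation p of 0.1, the smallest the design allows. After adjustment over the 6 pairs the permutation p was 0.2. The separation was fixed by the member values above, with ATHATN3 higher and the others lower in all caa39 libraries. It is no further support for a difference. Reads of near-identical copies may be shared between related families, and the part of this in the ratios was not tested.

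**Figure D3:**
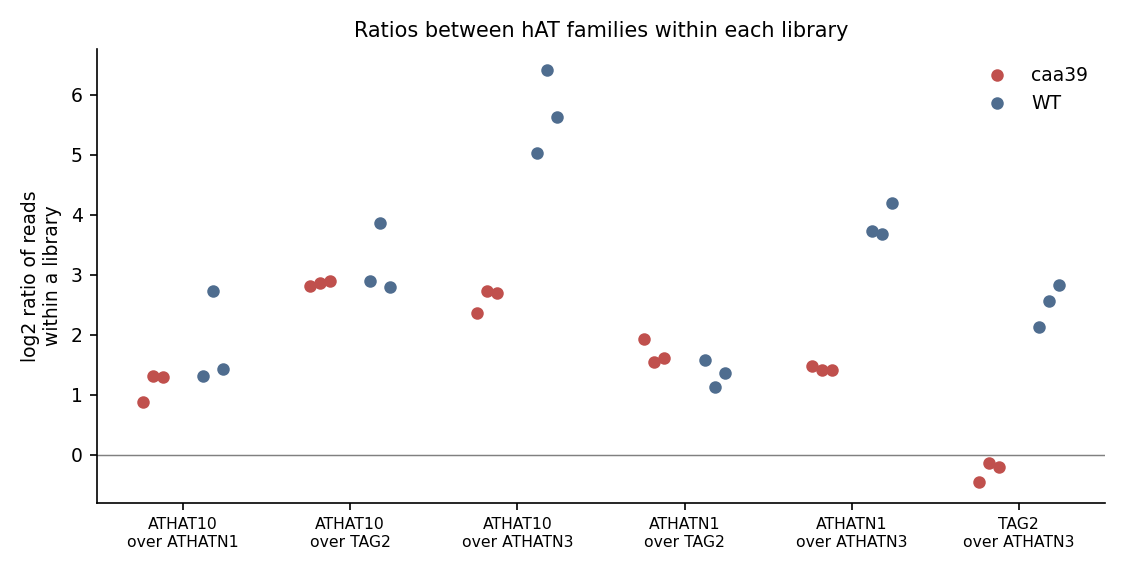
Log2 ratio of the reads of 2 hAT families within a library (vertical axis) for the 6 pairs (horizontal axis), with caa39 libraries left of wild-type (WT) libraries in each pair. The 3 pairs with ATHATN3 are separated between genotypes, by −3.10, −2.44 and −2.78 on the log2 scale, while the other pairs overlap. That separation follows from the opposite directions of the members.

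Summed over the 4 families, hAT expression was 1279, 1241 and 1278 normalised reads in caa39 libraries a, b and c, against 2290.4, 3638 and 2216 in wild-type libraries a, b and c. The caa39 sums differed little from each other and lay below all wild-type sums. The ratio of means was 0.466 over all libraries (two-sided exact permutation p = 0.1, n = 3 each) and 0.562 if wild-type library b is left out. The sum of the named families without hAT was also lower in all caa39 libraries, with a ratio of means of 0.858. ATHAT10 made up 53.3%, 59.2% and 59.0% of hAT reads in caa39 libraries a, b and c, against 63.8%, 81.2% and 65.1% in wild-type libraries a, b and c. The 95% Wilson intervals, which cover counting error only, were 50.9 to 55.6%, 56.7 to 61.6% and 56.1 to 61.8% in caa39, and 61.8 to 65.8%, 79.8 to 82.5% and 62.8 to 67.2% in the wild type. The mean share was 57.1% ± 3.34 in caa39 and 70.0% ± 9.69 in the wild type (SD, n = 3 each), with a two-sided exact permutation p of 0.1. This difference was −12.9 percentage points over all libraries and −7.29 if wild-type library b is left out. The shares depend on each other, so a larger share of ATHATN3 leaves a smaller one for ATHAT10. Without wild-type library b, picked out for its high ATHAT10 value, the log2 ratio of ATHAT10 to TAG2 differed by 0.02 between the genotypes. How much of the difference in share came with ATHATN3 was not tested. ATHATN3 took 9.45% ± 0.788 of hAT reads in caa39 and 1.40% ± 0.502 in the wild type (SD, n = 3 each). These shares did not overlap, as follows from a higher ATHATN3 and a lower sum in all caa39 libraries. TAG2 took 7.85% ± 0.287 in caa39 and 7.85% ± 1.99 in the wild type (SD, n = 3 each). The equal means for TAG2 rest on wild-type library b. Its shares were 7.56%, 8.13% and 7.88% in caa39 libraries a, b and c, against 8.56%, 5.60% and 9.38% in wild-type libraries a, b and c.

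**Figure D4:**
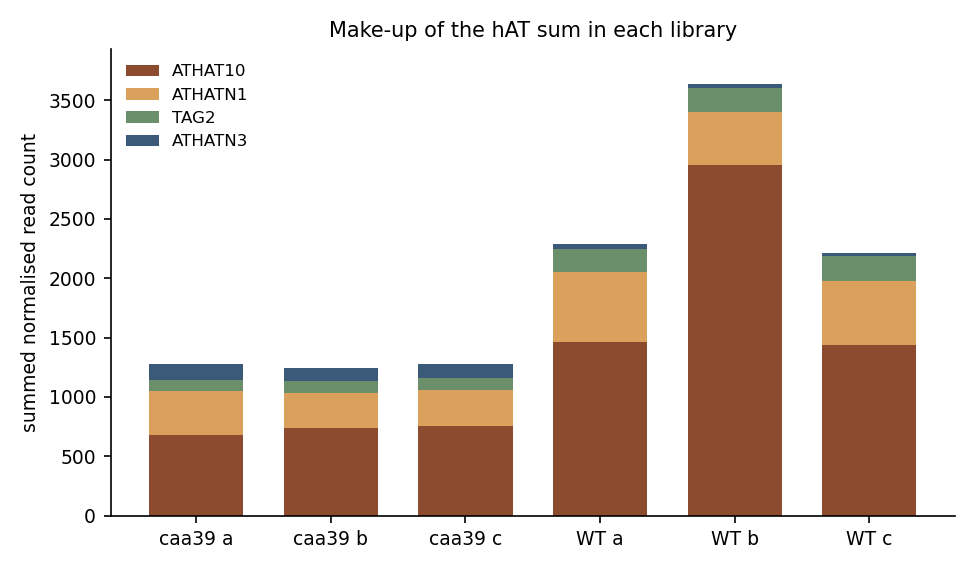
Summed normalised read count of the 4 hAT families (vertical axis, from 0) in each solved library of caa39 (left) and the wild type (WT, right), stacked by family. The caa39 sums lie between 1241 and 1279 and the wild-type sums between 2216 and 3638, with ATHAT10 the largest part of each bar.

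Set against all named families, hAT reads were 7.71% ± 0.283 in caa39 and 13.2% ± 3.37 in the wild type (SD, n = 3 each), with a two-sided exact permutation p of 0.1. The share does not depend on the scaling of libraries. The difference was −5.52 percentage points over all libraries and −3.57 if wild-type library b is left out. With ATHAT10 left out of both, the other hAT families made up 3.46% ± 0.289 in caa39 and 4.13% ± 0.356 in the wild type, with overlapping libraries (SD, n = 3 each), with a two-sided exact permutation p of 0.2.

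Families of the table with the pattern nearest to each hAT family were found by the root mean square difference of log2 values over the 6 libraries, each family centred on its own mean. For TAG2 the nearest were the Helitrons HELITRON1 (0.06) and ATREP10A (0.11), against a median distance of 0.89 over the other named families. For ATHATN1 they were HELITRONY1C (0.10) and ATCOPIA41 (0.11), against a median of 0.83. ATHATN3 had RathE2_cons (0.24) and ATCOPIA23 (0.28) nearest, with a median of 1.14. ATHAT10 had HELITRONY1B (0.22) and ATENSPM10 (0.29), with a median of 1.07. Some of these matches rest on few reads. HELITRONY1B had 7, 7 and 5 reads in caa39 libraries a, b and c, and 16, 19 and 11 in wild-type libraries a, b and c. RathE2_cons had 9, 9 and 8 reads in wild-type libraries a, b and c. ATENSPM10 had 16.1, 24.0 and 18.6 normalised reads in caa39 libraries a, b and c, against 28.6, 50.7 and 34.0 in wild-type libraries a, b and c. It shared with ATHAT10 the high wild-type library b, on 27, 44 and 28 reads in wild-type libraries a, b and c. The distance that picked it includes that library. No nearest family was another hAT family, but only 4 of the 83 named families are hAT. The distances also take in wild-type library b, which was high for ATHAT10. Apart from wild-type library b, left out after its ATHAT10 value was seen, the log2 ratio of ATHAT10 to TAG2 reads lay within 0.11 over 5 libraries. The distances describe 6 libraries of 2 genotypes and carry no test.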

How the data were processed

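RNA of 3 caa39 and 3 wild-type libraries, grouped by the genotype in their labels, was used; the chromatin and bisulfite libraries of the series were not analysed here. Stranded mRNA libraries were made, per the labels' protocols. The submitters' processing notes list the TAIR10 build and the tools Bowtie2, FastQC 0.10.1 and edgeR 1.12.0 without roles. The sources used here do not state how reads were given to families or to copies of like sequence, nor what program tested them.

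Per the file headers, the deposited signal of a genotype is the mean normalised read count of its libraries. The authors divided the caa39 mean by that of the wild type to give the deposited fold (a ratio), whose log2 is deposited as well. Each deposited p-value stands unadjusted and adjusted, and no adjusted value listed exceeds 0.0499. The table has 84 entries, and 1 entry of unassigned elements, with 28.3% of the solved reads, stayed out of the tests.

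Each group mean was decomposed into whole reads of 3 libraries, weighted by 1 constant per library (relative tolerance 1e-14, absolute tolerance 2e-13). For each genotype 1 set of constants solved all means, with 1 solution for each of 84 caa39 and 78 wild-type distinct means; sets that only split reads finer were dropped. In 4 entries, none of them hAT, the wild-type mean is listed as 1 where the overall mean gives 0, and 0 reads were used. Size factors were 1.37, 1.21 and 0.914 in caa39 libraries a, b and c, and 0.943, 0.868 and 0.823 in wild-type libraries a, b and c, so that each read counts for 0.732 to 1.22 normalised reads. Totals cover listed families and are not sequencing depths. All SDs are of the solved values.

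Under R 4.3.3, limma 3.58.1 was fitted to log2 of normalised count plus a pseudocount of 0.5 over the 83 named families, with Benjamini-Hochberg adjustment. Sums, shares and ratios were compared by exact permutation tests over libraries, two-sided, in Python 3.11.15 (pandas 2.3.3, numpy 2.4.6, scipy 1.17.1), and plotted with matplotlib 3.10.9. The solver and limma were run on simulated counts with a common dispersion, and for limma with some families unchanged. The listed families had all passed a test, so those runs do not give an error rate for them. Alternatives were pseudocounts of 1 and 5, a minimum mean of 20, scaling to listed reads, library weights and each library left out. All 4 hAT families were named, with the 2 families nearest to each in pattern. ATCOPIA50, which exceeded 1.5 in the ratio of wild-type libraries, was named after its values were seen. The members, lists and tests were chosen with earlier results of these data known.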

Additional observations from a re-analysis of the deposited data

How the results depend on the processing

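Of 44 limma values of the 4 hAT families under the alternatives, 43 kept direction and call. The exception was ATHATN1 when libraries were scaled to listed reads, with a log2 fold change of −0.38 and a limma adjusted p of 0.0620; the cause was not tested. Limma called 4 families, and 3 under that scaling. The ranges over alternatives were −1.52 to −1.01 for ATHAT10, −0.80 to −0.38 for ATHATN1, −1.05 to −0.72 for TAG2 and 1.59 to 2.04 for ATHATN3. The log2 ratio of the hAT sum was −1.10, and −0.49 without ATHAT10 and −0.79 scaled to listed reads; with 1 library left out it ran from −1.23 to −0.83, and the difference in the share of ATHAT10 from −16.0 to −7.29 percentage points. The genotypes do not overlap for any member, so neither another pseudocount nor a left-out library could turn a direction. The sums and shares cannot pass 0.05 with 3 against 3 libraries. ATHATN3 rests on the fewest reads, 96 in the wild type. No paired analysis was possible because values used here are means per genotype, and replicate numbers cannot be given to solved libraries.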
